A study of Mus musculus with 20 samples.

Results

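Cassette exons that lie between introns of at least 10000 bp on both sides were examined in bone marrow RNA of mice that expressed mutant or wild-type U2AF1 and received sudemycin D6 or vehicle. A cassette exon is an exon that is either joined into the mRNA or left out of it. Each was built from annotated splice junctions with reads: a skipping junction and the 2 inclusion junctions that share its ends, around an exon of 31 to 300 bp with no other annotated junction inside. This gave 381 events, which are 366 different exons in 303 genes, of 9239 events and 8766 exons in all. The other events of this exon size were 7221 with at least 1 intron under 10000 bp, of which 1521 had both introns under 1000 bp. The members were chosen by length alone, and no read count entered the choice apart from a junction having been seen.

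The study transplanted marrow of transgenic donors into irradiated recipients and sequenced total bone marrow RNA of 20 recipients, 5 for each combination of transgene and treatment. In every group doxycycline chow (625 ppm) switched on an rtTA-dependent U2AF1 transgene for 7 days, either U2AF1(S34F) or U2AF1(WT), and the last 5 days brought intravenous sudemycin D6 or vehicle. The U2AF1(WT) groups are thus overexpression controls and not untreated marrow, and donor marrow of one genotype was pooled before transplantation, so that p-values measure the spread between recipients. The stroma of the recipients is their own and does not carry the transgene. Ages of the mice were not in the labels used here.

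U2AF1 is the subunit of the U2 auxiliary factor that reads the AG at the 3′ end of an intron, and the S34F change is known to alter its preference for the base just before that AG, at position -3 from the exon. SF3B1, which sudemycins bind, is part of the U2 particle that settles on the branch point upstream of the same site. In mammalian genes with long introns the splicing machinery first recognises an exon as a unit, through contacts between its 3′ and 5′ splice sites across the exon. An exon that is not recognised is skipped.

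The 3′ splice sites of the exons on which the drug results rest are shown first, as the last 20 intron bases and the first 3 exon bases, 5′ to 3′ on the strand of the gene. The capital marks position -3. Sequences and coordinates are those of mouse genome build NCBIM37 (mm9), with the exon's interval given after the gene.
Baz2b, chr2:59914927-59914968, minus strand: attctgtgtttctgttgCaggtt
Gsn, chr2:35122340-35122423, plus strand: attcctggacccttttcCaggta
Gng12, chr6:66893819-66893871 and 66893876, plus strand: cctgtttaattctctttCagatt
Gnb1, chr4:154889740-154889788, plus strand: aaccttttctgttgttaCagata
Raly, chr2:154646743-154646825, plus strand: ttttatttttcctgttaCaggtg
Yaf2, chr15:93147970-93148039, minus strand: ctattgggtaatctccaCagatc
Zfand3, chr17:30290248-30290313, plus strand: gcctactttcttgttttTaggtg

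Every one of these sites but that of Zfand3 has a C at -3. A selection of exons called between the genotypes comes next, in the same layout. The first 5 are from exons with more skipping in mutant mice and the last 4 from exons included more. Among those called but not shown are Mapkap1 (skipped more, C at -3) and Bcas3 (included more, A at -3).
Agap1, chr1:91662881-91663039, plus strand: cctgacttgtttattccTaggga
Itgb3bp, chr4:99468788-99468923, minus strand: aaattattatttatttcTagtca
Pan3, chr5:148299687-148299834, plus strand: tatatttgattttcaaaTagaca
Ptpn1, chr2:167777456-167777579, plus strand: tgctgcttcactgtcaaTaggtg
Pag1, chr3:9787262-9787320, minus strand: ttcctcttattcctttcTagaac
Tmcc1, chr6:116057330-116057534, minus strand: aggctgtgctgtctccgCagaac
Ncoa2, chr1:13289744-13289803, minus strand: ctcttattgtcttcccaCagccc
Dapp1, chr3:137624406-137624539, minus strand: atattcttcttttctttCagagc
Sgk3, chr1:9817094-9817200, plus strand: tttctctttctttttccCagtgc

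Inclusion was measured as Ψ, the share that the mean of the 2 inclusion junctions makes of itself plus the skipping reads, so that Ψ of 1 means that the exon was always included. ΔΨ is Ψ of the second named group minus the first, and a negative ΔΨ means more skipping in the second group. Reads on junctions summed to between 34384214 and 64813149 per mouse, of which 76386 to 129820 fell on the long-intron events. The median long-intron event had 67.1 reads per mouse, against 115.0 for the other events, so their Ψ is the less precise. An event was tested at a mean of 10 reads per mouse with reads of both isoforms, and called at FDR under 10% with |ΔΨ| over 1 percentage point (edgeR quasi-likelihood test, Benjamini-Hochberg over all cassette exon events tested). Of the 381 events 313 were tested in at least 1 of 5 pairwise comparisons and 68 in none. In all, 38 events were called at least once, which are 38 different exons in 36 genes, all on autosomes.

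As a group these exons lay near the start of their genes. In 208 of 366 exons (56.8%) the exon was annotated as the second of a transcript, against 34.7% of exons with a shorter intron. The annotation placed 194 in coding sequence, 84 (23.0%) in the 5′ UTR, where other cassette exons had 10.1%, 42 across the edge of a coding region and 35 in non-coding transcripts. Base -3 was C in 238, T in 114, A in 13 and G in 1 of them, shares of 65.0% C and 31.1% T that compare with 60.8% and 30% in exons with a shorter intron. Of the coding ones 113 (58.2%) had a length divisible by 3, which leaves the reading frame intact when the exon is skipped. The lengths of the upstream introns reached from 10077 to 249838 bp (median 27102 bp) and those of the downstream introns from 10031 to 261686 bp. Just inside the length limit lay events of Foxn3 with a shorter intron of 10031 and 10034 bp (Ψ 0.366 and 0.28 in vehicle-treated U2AF1(WT) mice) and Rev3l with 10077 bp (0.325). Just outside lay events of Ncoa5 with 9983 bp (0.816 and 0.747) and Tiam1 with 9968 bp (0.90).

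Under vehicle most of these exons were usually included. Over the 307 events with at least 10 reads the median Ψ was 0.895 in vehicle-treated U2AF1(WT) mice, where 150 events had a mean Ψ over 0.9 and 48 a mean Ψ under 0.1. The median SD between the mice of that group was 0.0355.

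The median inclusion of exons between long introns was lower in every sudemycin-treated mouse than in every vehicle-treated mouse, in both genotypes. The median Ψ over the 307 events was 0.885, 0.887, 0.887, 0.895 and 0.902 in the 5 vehicle-treated U2AF1(WT) mice and 0.812, 0.831, 0.845, 0.858 and 0.870 in the 5 sudemycin-treated ones. For U2AF1(S34F) it was 0.883, 0.887, 0.888, 0.891 and 0.891 with vehicle and 0.815, 0.826, 0.839, 0.846 and 0.851 with sudemycin D6. The highest sudemycin-treated mouse, at 0.870, lay below the lowest vehicle-treated mouse, at 0.883. The shallowest library, a vehicle-treated U2AF1(WT) mouse, had 0.887, within its group. Over the 6418 events with a shorter intron the medians of single mice overlapped between treatments in both genotypes, with 0.826 to 0.831 (vehicle) and 0.815 to 0.838 (drug) for U2AF1(WT), and 0.823 to 0.836 and 0.818 to 0.826 for U2AF1(S34F). These medians describe the events and carry no test.

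**Figure D1:**
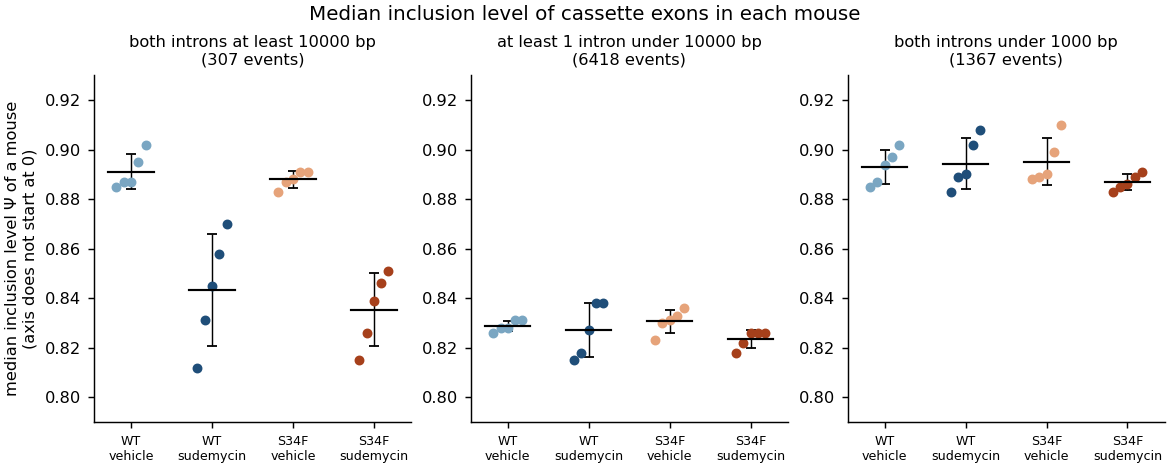
Median Ψ of each mouse (points, y axis not from 0) over cassette exons with both introns of at least 10000 bp, with at least 1 intron under 10000 bp, and with both introns under 1000 bp, in the 4 groups of 5 mice; lines and bars are the mean and SD of the mice. In the first panel all 10 sudemycin-treated mice, at 0.812 to 0.870, sit below all 10 vehicle-treated mice, at 0.883 to 0.902.

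Single exons were then compared. In U2AF1(WT) mice the median ΔΨ of sudemycin D6 against vehicle was -0.0137 over 291 tested long-intron events, of which 71.5% had a lower Ψ with the drug. Among 6135 tested events with a shorter intron the median was -9.54e-05 and 50.2% were lower. The mutant mice had -0.0132 and 69.3% of 300 long-intron events, against -0.00106 and 53.2% of 6231. The shift went with the length of the shorter intron. From under 1000 bp through 1000 to 3000, 3000 to 10000 and 10000 to 20000 bp the median ΔΨ in U2AF1(WT) mice was 0.00156, -0.000523, -0.00874 and -0.0153, and it was -0.0122 at 20000 bp or more. The same classes had in mutant mice medians of -3.44e-05, -0.0013, -0.00631, -0.0161 and -0.00964. The share of events with lower Ψ was near 50% where the shorter intron was under 1000 bp (46.2% and 50.2%) and over 70% from 10000 to 20000 bp (72.1% and 71.6%). The genotype comparisons showed medians between -0.003 and 0.0046 in every class of intron length.

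**Figure D2:**
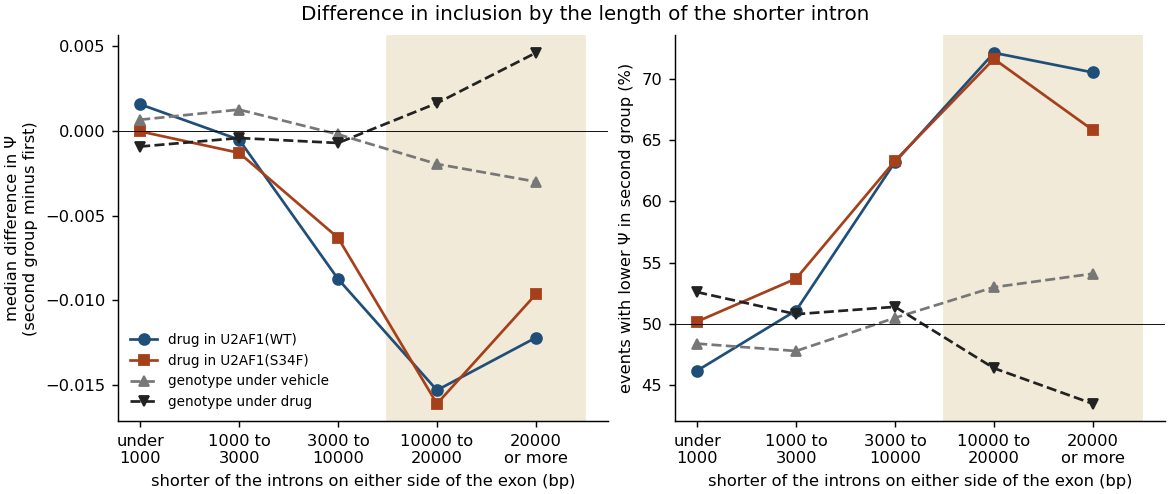
Median ΔΨ (left) and share of tested events with lower Ψ in the second group (right) by the length of the shorter flanking intron, for 2 drug and 2 genotype comparisons, with the exons of at least 10000 bp on both sides shaded. The drug lines fall from 0.00156 and -3.44e-05 at under 1000 bp to -0.0153 and -0.0161 at 10000 to 20000 bp, and the genotype lines stay within -0.003 to 0.0046.

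With sudemycin D6 11 of 291 long-intron events were called in U2AF1(WT) mice (3.78%), beside 2.6% of all tested cassette exon events, and 13 of 300 in U2AF1(S34F) mice (4.33%), beside 2.1%. All 24 calls were of more skipping, a direction held by 1.59% and 1.33% of all tested events (1.0% and 0.772% were included more), with falls of 0.0283 to 0.162 and of 0.02 to 0.133 in Ψ. No long-intron event was called as included more in the edgeR quasi-likelihood test, nor with limma on Ψ, and at an unadjusted p under 0.05 the events with higher Ψ numbered 1 of 34 and 5 of 45 (11.1% and 11.6% of all tested events had such a p). Over all events with a shorter intron 70 were skipped more and 70 included more for U2AF1(WT), and 63 and 53 for U2AF1(S34F). That split varied with the length of the shorter intron. From 3000 to 10000 bp the counts were 14 and 2, and 24 and 3, and under 1000 bp 35 and 50, and 23 and 32. The count in U2AF1(WT) mice was 6 without vehicle-treated mouse 2 of that genotype. A dispersion estimated from the data left 0 of 11 and 2 of 13 calls.

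The 24 calls came from 18 exons, of which 6 were called in both genotypes: those of Baz2b, Gsn, Svil and Gnb1 and 2 forms of one exon of Gng12. They were 54.5% of the exons called in U2AF1(WT) mice and 46.2% of those called in U2AF1(S34F) mice. The exons called in U2AF1(WT) mice all had a lower mean Ψ with the drug in U2AF1(S34F) mice too (11 of 11), and those called in U2AF1(S34F) mice a lower mean in U2AF1(WT) mice (13 of 13). These comparisons share no mouse. Over the 279 long-intron events tested in both genotypes 155 (55.6%) had lower Ψ with sudemycin D6 in both and 35 (12.5%) higher Ψ in both. Events with a shorter intron had 31.2% and 27.8%. With 71.5% and 69.3% of long-intron events lower in the single genotypes, many would be lower in both without agreement exon by exon. The correlation of ΔΨ between the genotypes was weak for long-intron events (Pearson 0.12, Spearman 0.3). Events with a shorter intron had 0.27 and 0.28. A fall of more than 5 percentage points in both genotypes was seen for 32 events (11.5%) and a rise of that size in both for 2 (0.717%).

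**Figure D3:**
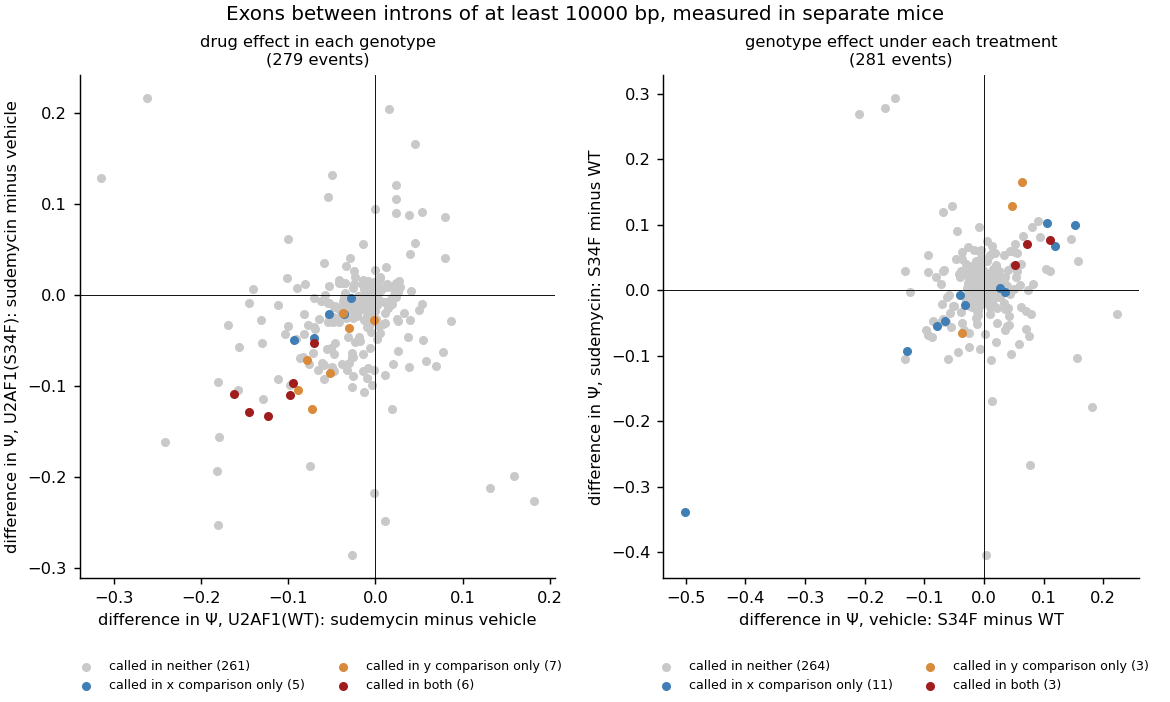
ΔΨ of each long-intron event, at left sudemycin D6 minus vehicle in U2AF1(WT) (x) and U2AF1(S34F) mice (y), at right U2AF1(S34F) minus U2AF1(WT) under vehicle (x) and sudemycin D6 (y); each panel sets side by side comparisons that share no mouse, and colours mark called events. At left 155 of 279 events lie at lower left and 35 at upper right, and at right 74 and 77 of 281.

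The largest fall in U2AF1(WT) mice was in Baz2b, a bromodomain protein of chromatin remodelling complexes, where an exon of 42 bp sits between introns of 48551 and 70680 bp in a transcript annotated as non-coding. With its last 20 upstream and first 6 downstream intron bases in lower case and the exon in capitals, chr2:59914921-59914988 on the minus strand reads
Baz2b: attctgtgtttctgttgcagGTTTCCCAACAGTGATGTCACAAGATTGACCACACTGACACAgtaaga
Its Ψ was 0.853, 0.861, 0.866, 0.901 and 0.907 in vehicle-treated and 0.605, 0.675, 0.744, 0.771 and 0.784 in sudemycin-treated U2AF1(WT) mice. Mutant mice had 0.873, 0.885, 0.890, 0.891 and 0.915 with vehicle and 0.750, 0.777, 0.781, 0.796 and 0.809 with the drug. The groups did not overlap in either genotype, and the genotypes overlapped under each treatment. ΔΨ was -0.162 (FDR=5.52e-06) in U2AF1(WT) and -0.108 (FDR=0.000109) in U2AF1(S34F) mice, from 370 to 914 reads per mouse. The call in U2AF1(S34F) mice held under every alternative tried. The one in U2AF1(WT) mice was lost with limma (adjusted p=0.106) and with an estimated dispersion (0.215).

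Gelsolin (Gsn) severs and caps actin filaments, and supervillin (Svil) is a membrane-bound protein of the same family. The gene of each had a 5′ UTR exon that was skipped more often with the drug. The Gsn exon of 84 bp, with 1331 to 3143 reads per mouse, had Ψ of 0.932, 0.934, 0.952, 0.953 and 0.960 in vehicle-treated and 0.859, 0.865, 0.882, 0.885 and 0.891 in sudemycin-treated U2AF1(WT) mice. With the mutant transgene it had 0.950, 0.954, 0.965, 0.969 and 0.969 under vehicle and 0.894, 0.901, 0.905, 0.919 and 0.925 under sudemycin D6. All sudemycin-treated mice lay below all vehicle-treated mice of either genotype, with ΔΨ of -0.0701 (FDR=3.4e-06) and -0.0525 (FDR=0.000113). The SD was at most 0.0138 in any group. The Svil exon of 108 bp, between introns of 50215 and 65910 bp, fell from a mean Ψ of 0.604 ± 0.0214 (SD, n=5) to 0.505 ± 0.026 in U2AF1(WT) mice (ΔΨ=-0.0982, FDR=0.00877) and from 0.652 ± 0.0395 to 0.542 ± 0.0271 in U2AF1(S34F) mice (ΔΨ=-0.11, FDR=0.00101). Its groups did not overlap in U2AF1(WT) mice and just overlapped in U2AF1(S34F) mice, where the lowest vehicle value was 0.584 and the highest drug value 0.586.

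Subunits of heterotrimeric G proteins, which couple membrane receptors to signals inside the cell, were also among these genes. Gnb1 encodes a beta subunit and Gng12 a gamma subunit, and both exons lie in the 5′ UTR. The Gng12 exon has one 3′ splice site and 2 donors, which gives forms of 53 and 58 bp between an upstream intron of 29314 bp and downstream introns of 71847 and 71842 bp. The 53 bp form had Ψ of 0.502, 0.544, 0.569, 0.582 and 0.596 in vehicle-treated and 0.386, 0.398, 0.412, 0.421 and 0.452 in sudemycin-treated U2AF1(WT) mice. With U2AF1(S34F) it had 0.533, 0.592, 0.604, 0.620 and 0.660, and 0.424, 0.434, 0.484, 0.510 and 0.514. Neither pair of groups overlapped (ΔΨ=-0.145, FDR=0.00776, and ΔΨ=-0.129, FDR=0.00473). The 58 bp form shares its upstream inclusion and skipping reads with the shorter form and fell by 0.124 (FDR=0.0506) and 0.133 (FDR=0.00339). From its downstream junction alone, the one that belongs to this form only, ΔΨ was -0.0377 and -0.0502 with an FDR of 0.694 and 0.588, which lost both calls. The downstream donors of the forms read, with the exon's last 3 bases first and the GT in capitals,
Gng12, 53 bp: ctgGTaagg
Gng12, 58 bp: aagGTccgt
The Gnb1 exon of 49 bp went from a mean Ψ of 0.51 ± 0.0609 to 0.415 ± 0.0483 in U2AF1(WT) mice, where the groups overlapped (ΔΨ=-0.0949, FDR=0.0283). In U2AF1(S34F) mice its values of 0.533, 0.561, 0.594, 0.602 and 0.619 under vehicle lay above 0.455, 0.459, 0.488, 0.496 and 0.530 under the drug (ΔΨ=-0.0961, FDR=0.00629).

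Called in U2AF1(WT) mice alone were exons of Raly, an RNA-binding protein of the hnRNP family, Zfand3, Mapkap1, which encodes the mTORC2 subunit Sin1, Bre, a member of BRCA1-containing complexes, and Cul3, a scaffold of ubiquitin ligases. The Raly exon of 83 bp in the 5′ UTR had 0.696, 0.731, 0.735, 0.736 and 0.775 with vehicle and 0.611, 0.619, 0.646, 0.655 and 0.675 with sudemycin D6 (ΔΨ=-0.0933, FDR=0.00428). In U2AF1(S34F) mice its groups did not overlap either, at 0.697 to 0.746 and 0.629 to 0.678, with ΔΨ of -0.049 that missed the threshold (FDR=0.148). The other 4 were coding exons that were nearly always included under vehicle, with mean Ψ of 0.944 to 1, and had ΔΨ of -0.0283 for Cul3 (FDR=0.0817), -0.0357 for Bre (FDR=0.0714), -0.0532 for Mapkap1 (FDR=0.0421) and -0.0705 for Zfand3 (FDR=0.0183). The Cul3 exon had no skipping read in any of the vehicle-treated U2AF1(WT) mice and Ψ of 0.946, 0.964, 0.973, 0.976 and 1 in the sudemycin-treated ones. Its inclusion was counted mostly upstream, at 402 to 875 reads per mouse against 27 to 101 at the downstream junction. In sudemycin-treated U2AF1(WT) mice 0 to 16 skipping reads stood beside 32 to 41 downstream ones, so the size of ΔΨ depends on the junction. That exon, 70 bp long, is not a multiple of 3, while those of Mapkap1, Bre and Zfand3 are. Calls in this group that depended on single mice were those of Cul3 (lost without any of 8 mice, FDR up to 0.209), Bre (5 mice, up to 0.214), Mapkap1 (4 mice, up to 0.126) and Zfand3 (lost without sudemycin-treated mouse 12, 0.118).

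Among those called in U2AF1(S34F) mice alone were exons of Yaf2, a partner of Polycomb proteins, Calcrl, a G-protein-coupled receptor, Sykb, the annotation's symbol for spleen tyrosine kinase, Ube2h, a ubiquitin-conjugating enzyme, Rsu1, an adhesion protein, and Cyfip1, a subunit of the WAVE complex that drives actin branching. The Yaf2 exon of 70 bp had Ψ of 0.369, 0.391, 0.419, 0.426 and 0.456 with vehicle and 0.257, 0.261, 0.261, 0.30 and 0.355 with the drug (ΔΨ=-0.126, FDR=0.00416). These groups did not overlap, and in U2AF1(WT) mice the same exon had ΔΨ of -0.0732 (FDR=0.377). For the others named here ΔΨ was -0.104 (Calcrl, FDR=0.0546), -0.0716 (Ube2h, FDR=0.0564), -0.0363 (Sykb, FDR=0.0449), -0.0268 (Cyfip1, FDR=0.072) and -0.02 (Rsu1, FDR=0.0795). The call of Yaf2 held without any one mouse, and these 5 were each lost without any of 4 to 8 of the 10 mice. The Ube2h exon had 0 to 15 reads per mouse at its upstream inclusion junction, and its call was lost from that junction alone (FDR=0.317). That an exon was called in one genotype alone does not show a difference between the genotypes, which is tested by the interaction term.

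**Figure D4:**
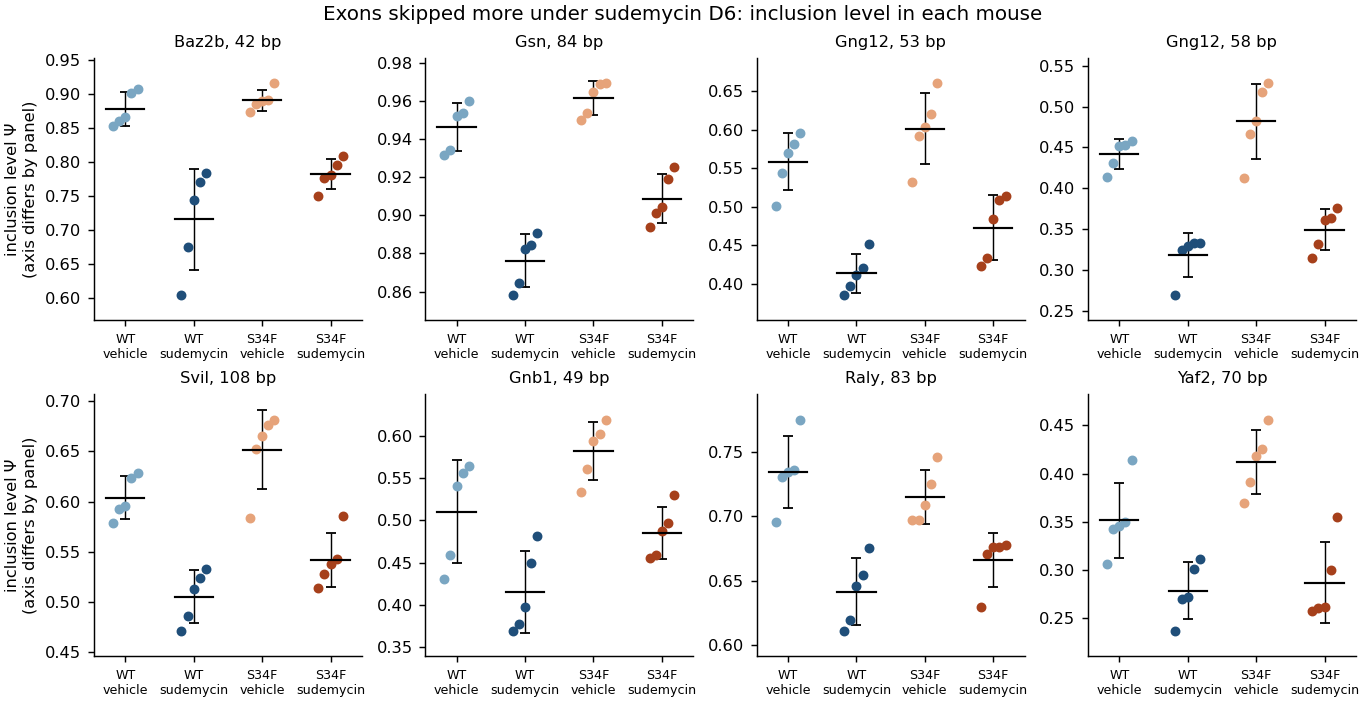
Ψ of each mouse (points, y axis differs by panel and does not start at 0) for 8 long-intron exons skipped more under sudemycin D6, in the 4 groups of 5 mice; lines and bars are mean and SD. In the panel of Gsn the sudemycin-treated mice lie at 0.859 to 0.925 and the vehicle-treated mice at 0.932 to 0.969.

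What the exons skipped under the drug had in common beyond their introns was described without a test. They were short, with a median of 67.0 bp against 99.0 bp for all 366 long-intron exons, and 16 of 18 were under 100 bp. Exons with a shorter intron that the drug skipped more also leaned this way, with a median of 91.0 bp against 105.0 bp. Of those 61.2% were under 100 bp, against 45.5%. The base at -3 was C in 17 of 18 (94.4%), against 65.0% of all long-intron exons. The 53 and 58 bp forms of Gng12 are counted apart among the 18, though they share their 3′ splice site. In the 5′ UTR lay 9 of 18 (50%), against 23.0%, and by class the median ΔΨ in U2AF1(WT) mice was -0.0269 over 65 exons of the 5′ UTR and -0.0131 over 157 coding ones. The corresponding medians with the mutant were -0.0244 and -0.0117. Over all tested long-intron events, by contrast, in U2AF1(WT) mice the median ΔΨ was -0.0143 with a C and -0.0141 with a T, and in U2AF1(S34F) mice -0.0123 and -0.0135.

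Expression of the genes themselves was read from the gene counts. In U2AF1(WT) mice none of the 10 genes with a called exon changed in expression with the drug (edgeR, FDR under 10%, lowest FDR=0.329, and 0 with DESeq2), with 1 at an unadjusted p under 0.05 and log2 fold changes from -0.05 to 0.27. In U2AF1(S34F) mice 1 of 12 did, Gnb1, with a log2 fold change of 0.25 (FDR=0.0494). Of all 303 genes that hold a long-intron exon 9 of 297 tested changed with the drug in U2AF1(WT) mice (3.03%, beside 3.07% of all genes) and 30 of 299 in U2AF1(S34F) mice (beside 10.8% of all genes). Cell-type markers were compared because fewer cells of a type and less RNA per cell cannot be told apart in bulk marrow. Between drug and vehicle the summed CPM of 10 neutrophil markers overlapped in both genotypes (65482 to 71878 and 59515 to 102091, 84312 to 141588 and 75059 to 123130), as did the sums of 10 erythroid (318 to 746 and 277 to 818, 265 to 943 and 355 to 711) and 10 megakaryocyte markers (64.4 to 98.3 and 55.4 to 91.6, 66.3 to 90.9 and 52.5 to 98). The sums overlapped as well for 10 B cell markers, of which 2 passed the test downward with the drug in each genotype, and for 10 T and NK cell and 10 stromal markers. With the drug in U2AF1(S34F) mice the markers that passed downward also included 3 of 10 T and NK cell, 3 of 10 megakaryocyte, 1 of 10 erythroid and 1 of 9 stromal markers, and 1 megakaryocyte marker passed upward. For U2AF1(WT) mice 1 megakaryocyte marker passed upward and 1 monocyte marker downward. Those of 9 monocyte and macrophage markers overlapped in U2AF1(WT) mice (1382 to 1995 and 1374 to 1609) and were higher with the drug in U2AF1(S34F) mice (1334 to 1643 and 1675 to 2119), where 1 of the 9 passed the test upward. No marker was at 0 in every mouse, and the part of cell makeup in the splicing changes was not tested.

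Between the genotypes calls went in both directions. Between U2AF1(WT) and U2AF1(S34F) mice under vehicle 14 of 292 long-intron events were called (4.79%), beside 5.78% of all tested events, and 6 were skipped more and 8 included more with the mutant (each direction 2.89% of all tested events). Under sudemycin D6 6 of 298 were called (2.01%, beside 5.09%), 1 skipped more and 5 included more (2.58% and 2.51% of all tested events). The median ΔΨ was -0.00214 and 0.00245. The genotypes cannot be told apart from the sex-linked transcripts: all 10 U2AF1(WT) mice had 39145 to 78640 counts of Xist and all 10 U2AF1(S34F) mice 1 to 8. U2af1 itself, counted over endogenous gene and any transgene reads that align to it, had 36.1 ± 1.39 CPM in vehicle-treated U2AF1(WT) and 51.1 ± 2.98 in vehicle-treated U2AF1(S34F) mice. The number of calls under vehicle was 9 without vehicle-treated U2AF1(WT) mouse 5. Neutrophil markers also separated the genotypes under vehicle, where the sums named above did not overlap and 4 of 10 markers were higher in U2AF1(S34F) mice, while under sudemycin D6 the sums overlapped and 2 of 10 were higher. Under vehicle 4 of 9 monocyte and macrophage markers were lower and 1 higher with the mutant, 3 of 10 T and NK cell markers were higher and 1 lower, 2 of 10 megakaryocyte markers passed in each direction, and 2 of 9 stromal markers were lower and 1 higher. Under sudemycin D6 the monocyte and macrophage sums did not overlap (1374 to 1609 in U2AF1(WT) and 1675 to 2119 in U2AF1(S34F) mice), with 3 of 9 markers higher and 1 lower. There 5 of 10 B cell, 5 of 10 erythroid, 4 of 10 T and NK cell, 3 of 10 megakaryocyte and 1 of 9 stromal markers were lower with the mutant, and 1 megakaryocyte marker was higher. The part of these markers in the differences between genotypes was not tested.

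The direction went with the base at -3. Of the 6 exons that the mutant mice skipped more under vehicle 5 had a T there, and of the 8 included more none had. Over all tested long-intron events with a T (94) the median ΔΨ was -0.00921 and 72.3% had lower Ψ, while over the 189 with a C the median was 0.00305 and 45.5% had lower Ψ. Events with a shorter intron had -0.0107 and 68.3% for 1856 with a T, and 0.00466 and 40.4% for 3754 with a C. Under sudemycin D6, in other mice, the long-intron medians were -0.00587 with a T (97 events) and 0.00957 with a C (190).

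Among the called exons that were skipped more, the exon of Itgb3bp, which encodes a centromere protein, had the lowest ΔΨ. Its coding exon of 136 bp had Ψ of 0.886, 0.913, 1, 1 and 1 in vehicle-treated U2AF1(WT) and 0.182, 0.400, 0.463, 0.484 and 0.764 in vehicle-treated U2AF1(S34F) mice (ΔΨ=-0.501, FDR=0.00531). The groups did not overlap, though the exon had 5.5 to 55.0 reads per mouse and is the shallowest of those described here. Its inclusion was counted almost wholly at 1 junction, with 11 to 80 reads per mouse at the upstream and 0 to 12 at the downstream inclusion junction. From the upstream junction alone ΔΨ was -0.376 (FDR=0.00539), and from the downstream one -0.107 (FDR=0.859), which lost the call. Under sudemycin D6 its values were 0.739, 0.867, 0.918, 1 and 1 against 0.467, 0.491, 0.527, 0.548 and 0.797, a ΔΨ of -0.339 that missed the threshold (FDR=0.118). The exon of 159 bp of Agap1, a GTPase-activating protein of Arf proteins, had 0.794, 0.868, 0.901, 0.905 and 0.920 against 0.678, 0.706, 0.782, 0.789 and 0.792 under vehicle (ΔΨ=-0.128, FDR=0.00783). The highest mutant mouse lay just below the lowest U2AF1(WT) mouse. A coding exon of 148 bp of Pan3, a subunit of a poly(A) nuclease, had 0.928, 0.931, 0.932, 0.935 and 0.961 against 0.809, 0.849, 0.864, 0.868 and 0.902 (ΔΨ=-0.0788, FDR=0.016). These 3 calls held without any one mouse and with limma on Ψ. With an estimated dispersion that of Itgb3bp was the 1 call left of the 14 under vehicle (FDR=0.0955). The remaining calls were smaller: exons of Ptpn1, a tyrosine phosphatase (ΔΨ=-0.0313, FDR=0.0239), Pag1, a membrane adaptor (ΔΨ=-0.066, FDR=0.0627), and Mapkap1, the one with a C at -3 (ΔΨ=-0.0402, FDR=0.0597), and they were lost without any of 2, 5 and 6 mice. Limma kept 7 calls under vehicle and 1 under sudemycin D6, where an estimated dispersion left 0 of 6.

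Among the exons included more was a partly coding one of 205 bp of Tmcc1, a protein of the endoplasmic reticulum membrane. It was included at a mean Ψ of 0.103 ± 0.0259 against 0.154 ± 0.0204 under vehicle (ΔΨ=0.0517, FDR=0.00225) and 0.089 ± 0.0201 against 0.127 ± 0.0101 under sudemycin D6 (ΔΨ=0.0379, FDR=0.048), where the groups overlapped and the call was lost without any of 6 mice. A 5′ UTR exon of 60 bp of Ncoa2, a coactivator of nuclear receptors, had 0.0631, 0.108, 0.118, 0.164 and 0.170 against 0.197, 0.198, 0.246, 0.263 and 0.316 under vehicle (ΔΨ=0.12, FDR=0.00743). Also called under vehicle were exons of Mtmr2, a lipid phosphatase (ΔΨ=0.153, FDR=0.046), Sgk3, a protein kinase (ΔΨ=0.105, FDR=0.0647), Gnb1 (ΔΨ=0.0714, FDR=0.0514), Bcas3 (ΔΨ=0.0347, FDR=0.047) and Cyfip1 (ΔΨ=0.0275, FDR=0.0589). Each of these 5 calls was lost without any of 2 to 6 mice. The Bcas3 exon, the one with an A at -3, had no inclusion read in any vehicle-treated U2AF1(WT) mouse and Ψ of 0.00629 to 0.0817 in the U2AF1(S34F) mice.

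Under sudemycin D6 the called exons included those of Tmcc1 and Gnb1 (ΔΨ=0.0703, FDR=0.0596) as under vehicle, and those of Dapp1, Ssh2 and Mctp1. The Dapp1 exon of 134 bp, in a lipid-binding adaptor of lymphocyte receptors, had 0.599, 0.697, 0.751, 0.810 and 0.854 in U2AF1(WT) and 0.869, 0.887, 0.911, 0.920 and 0.949 in U2AF1(S34F) mice treated with the drug (ΔΨ=0.165, FDR=0.0058), without overlap and without loss of the call when any one mouse was left out. Most of its inclusion reads lay at the downstream junction, and the call held from each inclusion junction alone (FDR=0.0694 upstream and 0.00525 downstream). The call was lost with limma on Ψ (adjusted p=0.135) and with an estimated dispersion in edgeR (FDR=0.153). Under vehicle the difference was 0.064 (FDR=0.344). The exon of Ssh2, a phosphatase that activates cofilin, rose by 0.129 (FDR=0.1, just under the threshold) and that of Mctp1 fell by 0.0653 (FDR=0.0685). Without 1 mouse these calls were lost for 7 and 6 of the 10 mice. The number of calls between the genotypes under the drug was 2 without sudemycin-treated U2AF1(S34F) mouse 2, 3 without U2AF1(S34F) mouse 9 or 12 or U2AF1(WT) mouse 8 or 12, and 9 without U2AF1(WT) mouse 9.

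**Figure D5:**
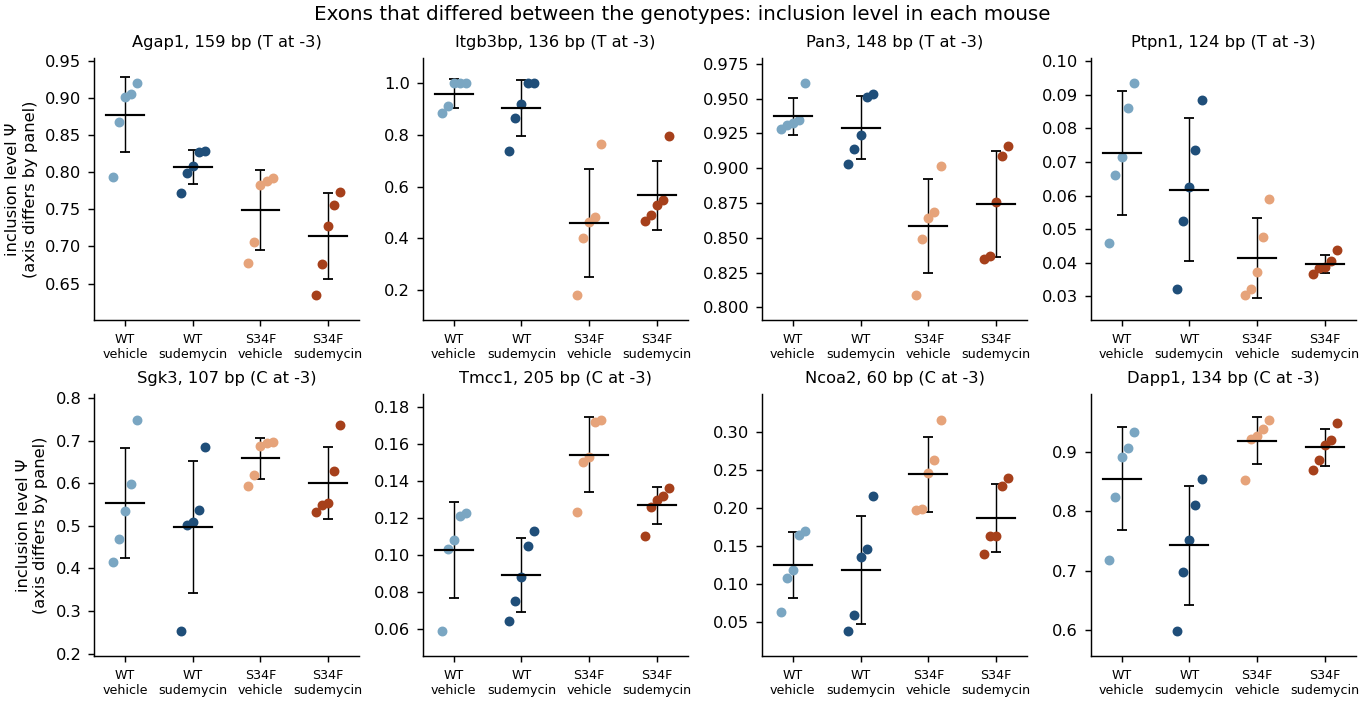
Ψ of each mouse (points, y axis differs by panel and does not start at 0) for 8 long-intron exons that differed between U2AF1(WT) and U2AF1(S34F) mice, with T at -3 in the upper row and C in the lower; lines and bars are mean and SD of 5 mice, and bars of Itgb3bp pass 1 although Ψ cannot. In the panel of Ncoa2 the vehicle-treated U2AF1(S34F) mice, at 0.197 to 0.316, lie above the vehicle-treated U2AF1(WT) mice, at 0.0631 to 0.170. The panels are a selection of the called exons, and the vehicle-treated groups of Sgk3 overlap.

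For Gnb1 and Cyfip1 the exon included more with the mutant under vehicle was also skipped more with sudemycin D6 in U2AF1(S34F) mice. These comparisons share the vehicle-treated U2AF1(S34F) mice, so a deviation of that group alone would enter both with opposite sign. For Gnb1 the group means were 0.51 ± 0.0609 and 0.415 ± 0.0483 in U2AF1(WT) mice, vehicle first, and 0.582 ± 0.0345 and 0.486 ± 0.0307 in U2AF1(S34F) mice. Between sudemycin-treated U2AF1(S34F) and vehicle-treated U2AF1(WT) mice its ΔΨ was -0.0247 (FDR=0.76), which was not called. For Cyfip1, included at 0.0164 to 0.0769 in vehicle-treated U2AF1(S34F) mice and at most 0.014 in any other mouse, both calls were lost without U2AF1(S34F) mouse 3 (FDR=0.311 and 0.281).

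The test of the interaction of genotype and drug called none of the 307 long-intron events tested (edgeR, lowest FDR=0.842), with 8 at an unadjusted p under 0.05 (4.69% of all tested events), and 0 with limma (13 unadjusted). Of all events tested 0.0123% were called.

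Mice with both the mutation and the drug were set against vehicle-treated U2AF1(WT) mice, and 21 of 296 long-intron events were called (7.09%), beside 9.23% of all tested events. Of these 19 were skipped more and 2 included more (5.46% and 3.77% of all tested events), while events with a shorter intron had 315 and 252. Of the latter, events with a shorter intron of 3000 to 10000 bp had 55 and 18. An estimated dispersion left 7 of the 21 calls. Between these groups all 10 B cell markers were lower with both, as were 6 of 10 T and NK cell, 6 of 10 megakaryocyte, 4 of 10 erythroid, 4 of 9 stromal and 3 of 9 monocyte and macrophage markers. Higher were 4 of 10 neutrophil markers, whose sums did not overlap, and 2 each of the T and NK cell, megakaryocyte, and monocyte and macrophage markers. Their part in the splicing differences was not tested. A T at -3 was held by 12 of the 19. The median ΔΨ was -0.023 over 96 events with a T and -0.01 over 190 with a C. This comparison shares its mice with the others, which are given side by side. Among the called exons the largest fall was that of Itgb3bp (ΔΨ=-0.394, FDR=0.0186), again read almost wholly from its upstream junction, and that of Agap1 came next. The Agap1 exon had ΔΨ of -0.164 (FDR=0.000443), where the mutation under vehicle gave -0.128 and the drug in U2AF1(WT) mice -0.0702. Its mean Ψ was 0.877 ± 0.0505, 0.807 ± 0.0232, 0.749 ± 0.0535 and 0.714 ± 0.0574 in the order of U2AF1(WT) with vehicle and drug and U2AF1(S34F) with vehicle and drug. The exon of 60 bp of Mctp1, a calcium-binding membrane protein, had 0.412 ± 0.0463, 0.389 ± 0.0407, 0.375 ± 0.0208 and 0.323 ± 0.038 in the same order, and its groups at the ends did not overlap (ΔΨ=-0.089, FDR=0.00451).

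Mapkap1 went from 0.996 ± 0.00619 to 0.943 ± 0.0216 with the drug, 0.956 ± 0.0205 with the mutant and 0.936 ± 0.029 with both (ΔΨ=-0.0606, FDR=0.00362), and it was called in each of these 3 comparisons with vehicle-treated U2AF1(WT) mice. The exon of 162 bp of Zmynd11, a reader of histone H3, had 0.621 ± 0.0299, 0.594 ± 0.0265, 0.549 ± 0.0569 and 0.545 ± 0.0384 (ΔΨ=-0.0761, FDR=0.0488). Called here and in no other comparison were Zmynd11 and exons of Cdk5rap2, a centrosome protein, Celf1, an RNA-binding protein, Cnot2, of the CCR4-NOT deadenylase, Ift80, of intraflagellar transport, a second Pan3 exon of 118 bp and Rtn3, with ΔΨ between -0.0921 and 0.0134. The call of each was lost without any of 2 to 9 mice. The Rtn3 exon of 57 bp has GC in place of GT at its donor and was included at 0.0167 ± 0.014 with both against 0.00333 ± 0.00571 in vehicle-treated U2AF1(WT) mice. Without sudemycin-treated U2AF1(S34F) mouse 12 the comparison gave 12 calls, 11 of them skipped more. From the downstream inclusion junction alone the falls of Svil (ΔΨ=-0.0619) and of the 58 bp form of Gng12 (ΔΨ=-0.0925) in this comparison turned into differences of 0.0352 and 0.0232, neither called.

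Lists of genes by function held few of these exons. Of 6 lists, that of actin and adhesion genes had 6 long-intron exons, of which that of Svil was called. The chromatin list had 13, with that of Baz2b called. The list of splicing and RNA binding had 6, with both Pan3 exons and that of Celf1 called. These lists are partial. The actin and adhesion list leaves out Gsn, Cyfip1, Ssh2 and Rsu1, and the RNA list leaves out Raly, all with called exons. Over the 5 comparisons 3 of 26, 3 of 69 and 4 of 40 tests of these 3 lists were called, with 4, 8 and 8 at an unadjusted p under 0.05. In each comparison 2.1% to 9.23% of all tested events were called. The Pan3 exons share reads, as the downstream inclusion junction of the 148 bp exon is the skipping junction of the 118 bp one. The comparisons share mice, so these tests are not independent. No call by edgeR fell on the listed genes of endocytosis, protein kinases and phosphatases, or blood transcription factors. They held 14, 12 and 25 exons, with 70, 58 and 104 tests over the 5 comparisons. Of these tests 3, 6 and 3 had an unadjusted p under 0.05. The kinase and phosphatase list leaves out Sgk3, Sykb, Ptpn1, Ssh2 and Mtmr2, whose called exons are given above. Median ΔΨ of the listed transcription factor exons was -0.00581 and -0.0177 with the drug in the 2 genotypes. That of the listed kinases and phosphatases was -0.0165 and -0.0139.

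In the genotype comparisons the host genes often differed in expression as well. Of 300 tested host genes 116 differed between the genotypes under vehicle (38.7%, beside 39.5% of all genes), 39 higher and 77 lower in U2AF1(S34F) mice (19.7% and 19.8% of all genes), and the median log2 fold change of host genes was -0.0748, against 0.00205 over all genes. Among the 14 with a called exon 8 differed, with log2 fold changes from -0.36 to 0.34. Under sudemycin D6 107 of 298 host genes differed between the genotypes (35.9%, beside 36.8%), and 135 of 298 between mice with both and vehicle-treated U2AF1(WT) mice (45.3%, beside 50.2%).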

How the data were processed

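Total bone marrow RNA of 20 mice was sequenced as stranded, rRNA-depleted libraries, which the authors aligned with TopHat2 (2.0.8). The authors deposited read counts per splice junction and per gene as whole-number counts, and the program that counted genes is not given in the sources used here. Cassette exons were built from annotated junctions. Inclusion against skipping counts were tested with edgeR 4.0.16 quasi-likelihood fits (R 4.3.3), 1 coefficient per mouse, negative binomial dispersion 0 and Benjamini-Hochberg adjustment over all events tested. Gene counts were tested with edgeR (TMM), and limma 3.58.1 and DESeq2 1.42.0 served as alternatives. Scripts were tested on simulated data. Exons were annotated on NCBIM37, and sequences were read from that build.

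The exons, gene lists and tests were chosen with earlier results of these data known. The exons named were, in each pairwise comparison, up to 5 called ones with the largest rise and 5 with the largest fall (groups not overlapping, at least 20 reads per mouse), those called in at least 3 comparisons, and called ones of listed genes, and 17 of 38 called exons outside that rule were named after their values were seen. Junctions not in the annotation were not used here, and the values of 1 called exon and 1 gene list are not reported here, though counts include that exon. Alternatives were other tests, junctions, thresholds and intron limits, a replicate block, and omission of single mice. Counting error and reads shared by overlapping events limit the precision of Ψ.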

Additional observations from a re-analysis of the deposited data

Results flagged for a closer look

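In 10 of 83 groups of 5 mice 1 mouse stood apart by Dixon's test (gap over range above 0.71). These groups cover the called exons picked by the naming rule above, and other called exons were left out of the count. Chance gives about 1 in 20 groups where values are normally distributed. That rate does not apply where all other mice are at 0, as for Bcas3 and Cyfip1 below, so no excess can be read from the count. The exon of Bcas3 was included at 0.0194 in sudemycin-treated U2AF1(WT) mouse 8 and at 0.00508 in sudemycin-treated U2AF1(S34F) mouse 12, with the other mice of both groups at 0. That of Mapkap1 had 0.986 in vehicle-treated U2AF1(WT) mouse 1 (others 0.996 to 1), that of Raly 0.629 in sudemycin-treated U2AF1(S34F) mouse 6 (others 0.670 to 0.678), and that of Itgb3bp 0.797 in mouse 10 of the same group (others 0.467 to 0.548, 39.5 reads). The Pan3 exons had 0.961 (148 bp) in vehicle-treated U2AF1(WT) mouse 1 (others 0.928 to 0.935) and 0.385 (118 bp) in mouse 4 (others 0.215 to 0.245). The 58 bp form of Gng12 had 0.270 in sudemycin-treated U2AF1(WT) mouse 9 (others 0.324 to 0.332). The exon of Cyfip1 had 0.014 in sudemycin-treated U2AF1(WT) mouse 10 (others 0) and 0.0769 in vehicle-treated U2AF1(S34F) mouse 3 (others 0.0164 to 0.0266).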

How the results depend on the processing

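Counts of called long-intron exons are given in the order genotype under vehicle, drug in U2AF1(WT), drug in U2AF1(S34F), genotype under drug, and mutation and drug together (14, 11, 13, 6 and 21). With a dispersion estimated by edgeR they were 1, 0, 2, 0 and 7, with 28 and 22 events at an unadjusted p under 0.05 where the count was 0. A minimum difference of 10 percentage points gave 6, 3, 6, 2 and 3, introns of at least 5000 bp 35, 21, 24, 21 and 59, and introns of at least 20000 bp 5, 5, 4, 2 and 8. With limma they were 7 (genotype under vehicle), 7 (drug in U2AF1(WT)) and 1 (genotype under drug). From the downstream inclusion junction alone the genotype comparisons had 9 and 3 and both together 13, and FDR under 5% gave 9 and 3 for the genotype comparisons. One model of all mice gave 8 for the drug in U2AF1(S34F). The cause of these shifts was not tested. From the downstream junction alone ΔΨ of Svil and of the 58 bp form of Gng12 with both mutation and drug turned to 0.0352 (FDR=0.541) and 0.0232 (FDR=0.799).

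Leaving out 1 mouse gave 9 to 14, 6 to 13, 9 to 14, 2 to 9 and 12 to 22 calls, and 30 of 65 exon calls held without any one mouse. Host genes changed in expression numbered 3 to 13 with the drug in U2AF1(WT) mice and 16 to 44 in U2AF1(S34F) mice when 1 mouse was left out, and 16 and 54 with DESeq2.

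Mice with the same replicate number did not deviate together (correlations -0.0468 to 0.0395), so the numbers were not taken to pair them. With the replicate block, on the mice that share numbers, the genotype comparisons had 0 calls under vehicle and 0 under the drug by edgeR (22 and 21 at an unadjusted p under 0.05), the interaction 0, and host genes 90 and 65. No paired analysis was possible for the drug comparisons or for both together because these groups share fewer than 2 numbers.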
